A study of Homo sapiens with 12 samples.

Results

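The YAP-TEAD pathway was followed through 10 genes, out of 58735 in the count and FPKM tables: the target genes CYR61, CTGF and ANKRD1, the angiomotins AMOT, AMOTL1 and AMOTL2, the kinase LATS2, the coactivators YAP1 and WWTR1, and the DNA-binding factor TEAD1. They were taken by gene name, and the set was chosen by measured values of these libraries: CYR61 was selected on its higher level with CEP, and AMOT on its lower level with 4SU. These differences are therefore given as descriptions, with standard errors and intervals and with no test. All 10 genes passed the filter on low counts, as did 17729 genes in all.

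YAP1 and its paralog WWTR1 (also called TAZ) are coactivators that do not bind DNA themselves and reach their genes through TEAD factors. In the Hippo pathway, the kinases STK3 and STK4 activate LATS1 and LATS2, which phosphorylate YAP1 and WWTR1 and keep them out of the nucleus. Angiomotins hold YAP1 at junctions and on actin filaments and also promote its phosphorylation by LATS kinases. CYR61 and CTGF are matricellular proteins of the CCN family, ANKRD1 is a nuclear ankyrin-repeat protein, and all of them are widely used as transcriptional readouts of YAP-TEAD activity in epithelial cells. AMOTL2 and LATS2 are themselves induced by YAP and act back on it.

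Polyadenylated RNA of HEK293T cells, a line derived from human embryonic kidney, was sequenced from 4 groups, each with 3 libraries. Cells of the DMSO group had no compound, cells of the CEP group had a clickable electrophilic purine, the cysteine-reactive probe AHL-Pu-1, at 25 µM for 1 h, cells of the 4SU group had 4-thiouridine, a photoreactive uridine analog that is incorporated into RNA, at 100 µM for 16 h, and cells of the CEP+4SU group had both. The treatment protocol on the labels gives the CEP concentration as 25 mM, whereas the design text gives 25 µM, and its wording, with UV crosslinking and a change to serum-free medium for the probe, is the same for all 12 libraries, so that what the cells without CEP or without 4SU went through is not stated separately. Replicates are called independent in the design text, all come from one cell line, and the p-values below measure the spread between them.

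The depth ranged from 16569114 to 24644734 gene counts a library. The 5 markers of HEK293T cells (VIM, NEFL, NEFM, PAX2 and KRT18) were found in every library, with a summed level of 124.6 to 136 FPKM. Of the nephron cell markers, UMOD had no read in any library, AQP2 reached at most 0.0248 FPKM and SLC34A1 at most 0.0773 FPKM. Markers of fibroblasts and leukocytes (COL1A2, PDGFRA, DCN, PTPRC and CD3E) summed to 0.0903 to 0.4345 FPKM, with CD3E at 0 throughout. CEP replicate 2 and CEP+4SU replicate 2 stood apart, with 22230 and 22627 genes detected against at least 24376 in each of the others. Expression also followed the GC content of genes differently between libraries. The slopes were −0.233 to 0.044 log2 units per 10% GC with CEP and −0.011 to 0.127 without, which overlap. The lowest were those of CEP+4SU replicate 2 and of CEP replicates 2 (−0.178) and 3 (−0.121). The values below are therefore also given with each library's GC trend removed and without the 2 libraries that stood apart where the value moved.

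The target genes were examined first. CYR61 (ENSG00000142871, GRCh38 chr1:85580761-85583962, plus strand) encodes a secreted matrix-associated protein that binds integrins. In counts per 1000000 (CPM, with library sizes scaled by the trimmed mean of M values, TMM), its level in the DMSO libraries was 11.35, 14.63 and 14.02. In the CEP libraries it was 20.66, 18.09 and 18.65 CPM. With 4SU alone it was 15.83, 13.44 and 11.79 CPM, and with both compounds it was 22.08, 25.69 and 22.95 CPM. The 6 libraries with CEP thus lay between 18.09 and 25.69 CPM, all above the 6 without CEP, which lay between 11.35 and 15.83 CPM.

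The group means of CYR61 were 13.3 ± 1.74 CPM with DMSO, 19.1 ± 1.35 with CEP, 13.7 ± 2.03 with 4SU and 23.6 ± 1.88 with CEP+4SU (SD, n = 3 each). The log2 fold change with CEP was 0.52 (SE 0.13) against DMSO and 0.785 (SE 0.13) against 4SU, comparisons that use different libraries. Averaged over both backgrounds it was 0.65 (SE 0.09, 95% interval 0.46 to 0.85), which is a 1.57-fold level (1.37 to 1.80). The value was 0.70 with each library's GC trend removed and 0.64 without the 2 libraries that stood apart. CEP+4SU against DMSO gave 0.82 (SE 0.13), the largest difference of CYR61 among the pairs of groups compared. In bulk RNA, more RNA per cell and more cells that express a gene cannot be told apart, here and for the genes below. The counts behind these values were 226 to 536 fragments per library.

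With 4SU, CYR61 showed a smaller and less even difference. Against DMSO it was 0.04 on the log2 scale (95% interval −0.25 to 0.32), and the libraries overlapped. Among the CEP-treated libraries, those that also had 4SU were higher by 0.30 (0.03 to 0.58). The 2 sets of 3 did not overlap. The share of all genes that separate in 3 against 3 was not computed, so nothing is read from that gap. The average over both was 0.17 (−0.03 to 0.37).

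CTGF (ENSG00000118523, chr6:131948176-131951373, minus strand), the closest of the targets to CYR61 in function and family, did not separate by CEP. Its levels were 3.388, 3.547 and 2.82 CPM with DMSO, 3.887, 2.887 and 3.274 with CEP, 3.548, 2.122 and 2.972 with 4SU, and 3.815, 2.876 and 3.164 with both compounds. Every group overlapped every other. The log2 fold change with CEP averaged over 4SU was 0.11 (SE 0.17), and its interval from −0.25 to 0.47 reaches the lower part of that of CYR61. Without the 2 libraries that stood apart it was 0.20. With 36 to 77 fragments per library, CTGF was measured less precisely than CYR61, and 8.34% of its exon bases overlap the antisense gene AL133346.1, whose reads cannot be told apart because the strand setting of the counting is not stated.

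ANKRD1 (ENSG00000148677, chr10:90912096-90921276, minus strand), a target that muscle cells express strongly, was near the limit of detection here. It had 4 to 31 fragments per library and 0.2118 to 1.486 CPM. Its log2 fold change with CEP was 0.37 with an interval from −0.49 to 1.22, so that neither a difference like that of CYR61 nor its absence was detectable at this depth. Without the 2 libraries that stood apart the value was 0.01, and the 4SU libraries alone spanned 0.2118 to 1.12 CPM.

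**Figure D1:**
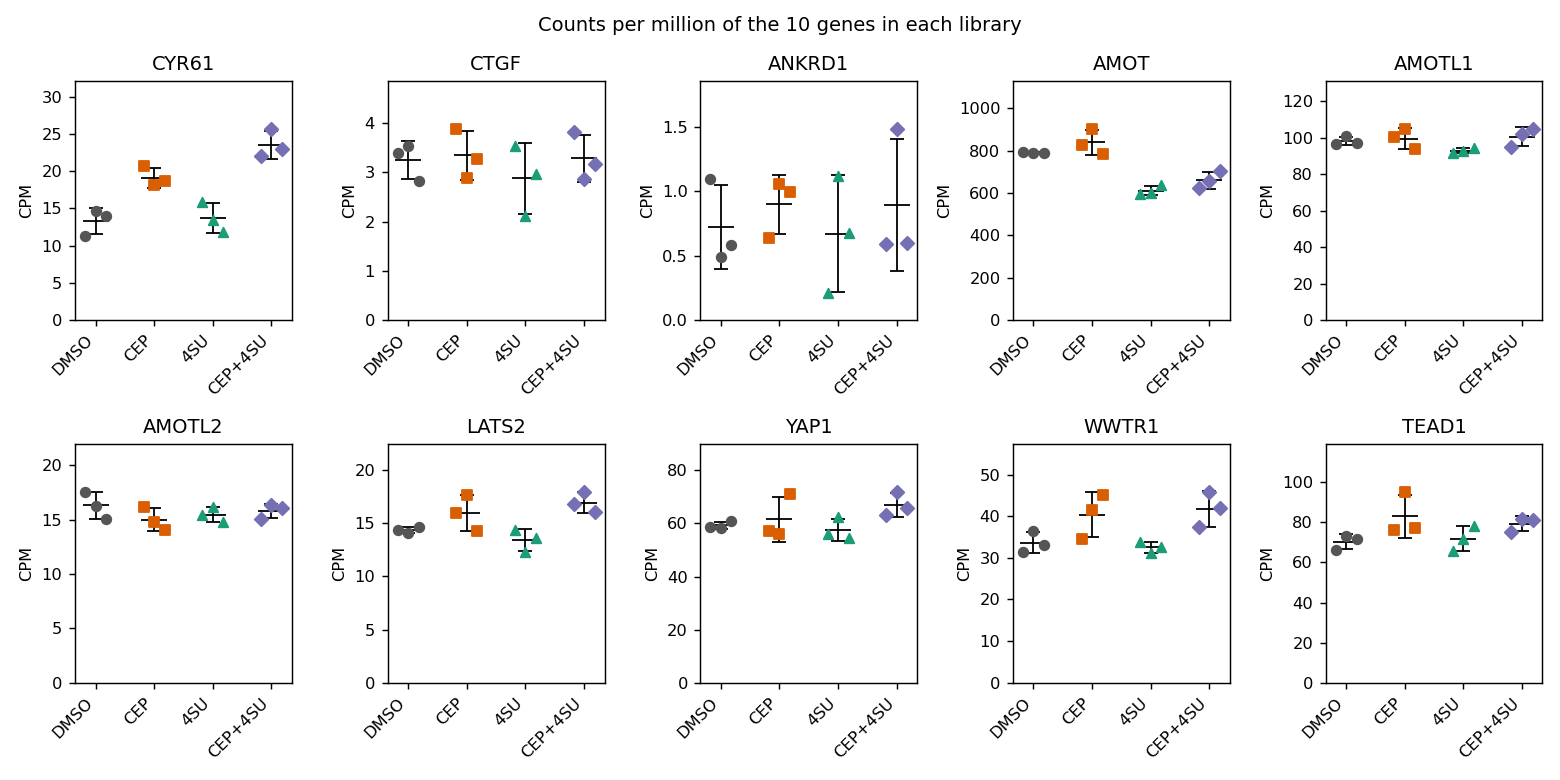
CPM (y axis, from 0, one scale per gene) of the 10 genes in each of the 12 libraries, by group; points are libraries, and the black marks are the mean and SD of 3. With CEP, CYR61 lies between 18.09 and 25.69 CPM, and without it between 11.35 and 15.83, AMOT lies between 595.5 and 702.7 CPM with 4SU and between 784.5 and 903.3 without, and the other 8 genes overlap in both divisions.

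The sequence upstream of the start site was read for the targets and for AMOT, to show where the letters that TEAD factors bind stand in them. RefSeq windows (GRCh38.p14) from 250 bases before to 50 after a start site were matched for 8 of the 10 genes, with 10 start sites between them. CYR61 and TEAD1 had no entry. The 250 upstream bases are printed 5′ to 3′ on the gene's strand, with capitals for GGAATG on either strand (the TEAD motif) and for TGANTCA. The latter is a loose form of the AP-1 motif that allows any letter in the middle and reads alike on both strands. A CArG box, the site of SRF, was also searched and not found in any of the 10 windows.

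CTGF (chr6:131951373-131951622, minus strand): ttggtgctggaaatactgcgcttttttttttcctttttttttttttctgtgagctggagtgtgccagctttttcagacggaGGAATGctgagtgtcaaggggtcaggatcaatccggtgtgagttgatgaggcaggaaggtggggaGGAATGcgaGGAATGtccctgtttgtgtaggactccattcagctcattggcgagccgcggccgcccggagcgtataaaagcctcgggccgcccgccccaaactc

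ANKRD1 (chr10:90921088-90921337, minus strand): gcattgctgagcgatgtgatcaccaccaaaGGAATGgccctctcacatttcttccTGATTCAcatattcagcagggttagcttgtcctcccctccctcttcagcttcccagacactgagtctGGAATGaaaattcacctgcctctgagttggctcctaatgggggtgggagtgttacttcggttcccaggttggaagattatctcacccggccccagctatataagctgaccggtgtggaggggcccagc

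AMOT (chrX:112840832-112841081, minus strand): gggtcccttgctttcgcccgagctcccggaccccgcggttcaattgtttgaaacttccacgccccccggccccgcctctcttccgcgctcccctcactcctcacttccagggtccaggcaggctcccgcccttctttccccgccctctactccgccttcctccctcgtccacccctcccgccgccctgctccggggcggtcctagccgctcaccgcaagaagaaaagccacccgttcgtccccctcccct

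CTGF held 3 copies of GGAATG, which begin at positions −169, −104 and −95 from its start site. ANKRD1 held 2, at −220 and −128, with a match to TGANTCA between them at −195, whose middle letter is T (TGATTCA). AMOT, AMOTL1 and WWTR1 held neither motif. YAP1 held GGAATG at −162, AMOTL2 held it on the reverse strand at −69 from one of its 2 start sites, and LATS2 held it at position 10 after the start. Among all 35116 RefSeq windows of this length, 14% held GGAATG, 7.71% held TGANTCA and 1.29% held a CArG box, and none of the matches named here overlap each other. A match in these windows is a description of the letters and not evidence of binding.

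The angiomotins were examined next. AMOT (ENSG00000126016, chrX:112774503-112840815, minus strand) encodes the founding member, which binds the WW domains of YAP1 and the junction protein complex of PATJ and MPP5. Its level was 794.2, 788.9 and 787.8 CPM with DMSO and 829.3, 903.3 and 784.5 CPM with CEP. With 4SU it was 595.5, 601.8 and 638.3 CPM, and with both compounds it was 624, 654.7 and 702.7 CPM. All 6 libraries with 4SU were below all 6 without.

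The group means of AMOT were 790.3 ± 3.42 CPM with DMSO, 839 ± 60 with CEP, 611.9 ± 23.1 with 4SU and 660.5 ± 39.7 with CEP+4SU (SD, n = 3 each). The log2 fold change with 4SU was −0.37 (SE 0.07) against DMSO and −0.345 (SE 0.07) against CEP. The average was −0.36 (SE 0.05, 95% interval −0.46 to −0.26), or 0.781 of the level without 4SU (0.727 to 0.838). It was −0.35 with the GC trend removed and −0.32 without the 2 libraries that stood apart. With 10207 to 18994 fragments per library, AMOT was the most deeply covered of the 10 genes.

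With CEP, AMOT differed by 0.10 on the log2 scale (SE 0.05, interval −0.00 to 0.20), and the libraries with and without CEP overlapped. CEP+4SU against DMSO gave −0.26 (SE 0.07), between the difference with 4SU alone and none.

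AMOTL1 and AMOTL2 are paralogs that also bind YAP1, and their libraries with and without 4SU overlapped. AMOTL1 (ENSG00000166025, chr11:94706431-94876753) lay between 91.61 and 104.9 CPM in the 6 libraries with 4SU and between 93.61 and 104.7 in the 6 without, with a log2 fold change of −0.03 (SE 0.05, interval −0.14 to 0.08). Its lower bound is above the upper bound of AMOT. The 3 libraries with 4SU alone, at 91.61 to 94.34 CPM, were below the 3 DMSO libraries, at 96.58 to 100.8 CPM. The difference was −0.08 on the log2 scale (interval −0.24 to 0.08), and no such gap was seen among the CEP-treated libraries. How many of all genes separate in 3 against 3 was not counted, so nothing is read from this gap. AMOTL2 (ENSG00000114019, chr3:134355874-134375479) lay between 14.81 and 16.34 CPM with 4SU and between 14.09 and 17.6 without, with a log2 fold change of 0.00 (SE 0.08, interval −0.17 to 0.17). The intervals of both paralogs lie apart from that of AMOT, which was chosen for its difference with 4SU. The difference between genes was not itself tested. The pseudogene RPL39P5 overlaps 3.12% of the exon bases of AMOTL2 on the same strand, and the antisense gene AP002383.2 overlaps 4.94% of those of AMOTL1. How such reads were assigned is not stated.

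Because the 3 angiomotins can be compared per length, their shares were computed from the deposited FPKM. AMOT made up 88.1% ± 0.223 of the summed FPKM of the 3 with DMSO and 88.8% ± 0.354 with CEP. With 4SU the share was 85.85% ± 0.427, and with CEP+4SU it was 86.0% ± 0.313 (SD, n = 3 each). The highest share with 4SU was 86.34% and the lowest without was 87.9%, so the 6 libraries with 4SU lay below the other 6. AMOT was chosen for its lower level with 4SU, so its share and its ratio to AMOTL1 carry that choice and are no further result. AMOT stood at 9.50 ± 0.238 times the FPKM of AMOTL1 with DMSO and at 7.77 ± 0.189 times with 4SU. It stayed the predominant angiomotin in each group.

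With CEP, AMOTL1 differed by 0.07 (SE 0.05; 0.04 without the 2 libraries that stood apart) and AMOTL2 by −0.04 (SE 0.08). AMOTL2 was the 1 gene of the 10 with a negative value in this comparison. With the GC trend removed its value was 0.12, and it has the highest GC content of the 10, at 59.6% against a median of 49.3% over the genes tested.

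**Figure D2:**
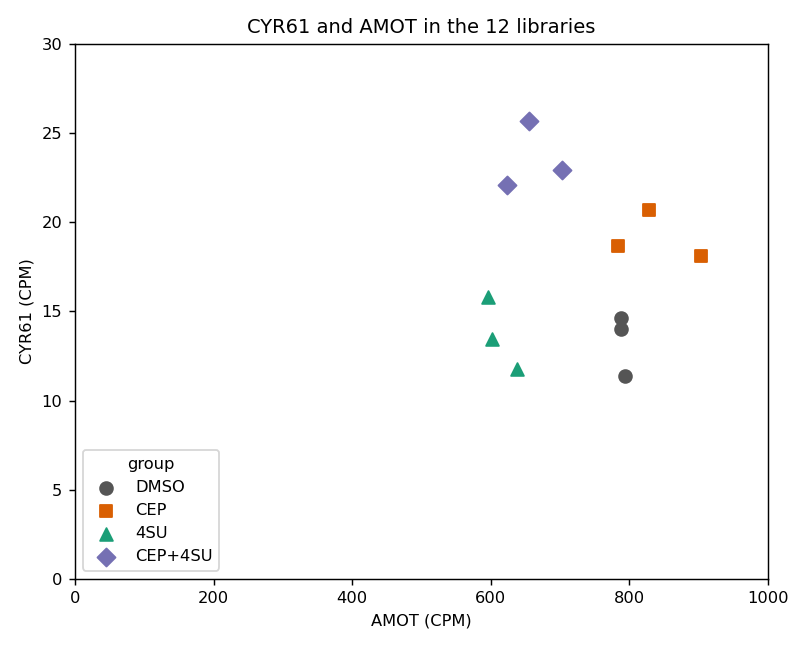
CYR61 (y axis, CPM) against AMOT (x axis, CPM), both axes from 0, with 1 point for each of the 12 libraries and the group by colour and shape. The 6 libraries with CEP lie higher, above 18 CPM of CYR61, and the 6 with 4SU lie further left, at up to 702.7 CPM of AMOT. Both genes were chosen for these differences, so the separation of the 4 groups here is no further result.

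LATS2 (ENSG00000150457, chr13:20973032-21061547, minus strand) is both a kinase that inactivates YAP1 and a gene that YAP induces. Its level was 14.34, 14.04 and 14.6 CPM with DMSO, 15.97, 17.67 and 14.23 with CEP, 14.35, 12.26 and 13.61 with 4SU, and 16.76, 17.97 and 16.07 with both compounds. CEP replicate 3, at 14.23 CPM, lay within the range of those without CEP, and the other 5 with CEP were above all 6 without. The log2 fold change with CEP was 0.245 (SE 0.09, interval 0.07 to 0.42). It was 0.29 with the GC trend removed and 0.18 without the 2 libraries that stood apart. With 4SU the average was −0.00 (SE 0.09).

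The coactivators were expressed at moderate levels. YAP1 (ENSG00000137693, chr11:102110461-102233423) was at 58.7, 58.28 and 60.92 CPM with DMSO and at 57.24, 56.08 and 71.21 CPM with CEP. It was at 56.23, 62.37 and 54.39 CPM with 4SU and at 63.13, 72.03 and 65.69 CPM with both. CEP replicates 1 and 2 were below the 3 DMSO libraries and CEP replicate 3 was above them. The CEP difference was 0.135 (SE 0.07, interval −0.01 to 0.28), of which the part against 4SU, 0.22, was the larger. The average was 0.069 with the GC trend removed and 0.073 without CEP replicate 3.

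WWTR1 (ENSG00000018408, chr3:149517235-149736714, minus strand), the paralog of YAP1, was at 31.46, 36.41 and 32.97 CPM with DMSO and at 34.45, 41.47 and 45.07 CPM with CEP. It was at 33.78, 31.25 and 32.59 CPM with 4SU and at 37.34, 45.91 and 41.94 CPM with both. CEP replicate 1 lay among the libraries without CEP, and the other 5 with CEP were above them. Its log2 fold change with CEP was 0.31 (SE 0.08, interval 0.15 to 0.47), a 1.24-fold level, and was 0.26 against DMSO and 0.36 against 4SU. After CYR61 and the sparsely counted ANKRD1 this was the largest of the 10, and it was 0.29 with the GC trend removed and 0.26 without the 2 libraries that stood apart. Antisense genes overlap 9.45% of the exon bases of WWTR1 (WWTR1-AS1) and 9.97% of those of YAP1 (AP000942.2).

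TEAD1 (ENSG00000187079, chr11:12674591-12944483), which brings the coactivators to DNA, was at 66.05, 73.31 and 71.71 CPM with DMSO and at 76.08, 95.26 and 77.24 CPM with CEP. It was at 65.77, 71.39 and 78.27 CPM with 4SU and at 75, 81.48 and 81.11 CPM with both. The CEP and DMSO libraries did not overlap, but those with CEP+4SU overlapped those with 4SU. The log2 fold change with CEP was 0.19 (SE 0.07, interval 0.05 to 0.33) on average, 0.08 with the GC trend removed and 0.12 without the 2 libraries that stood apart. TEAD1 has the lowest GC content of the 10, at 42.8%, and its highest level came from CEP replicate 2, one of the libraries that stood apart. With 4SU, YAP1, WWTR1 and TEAD1 differed by 0.04, 0.00 and −0.02 on average.

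**Figure D3:**
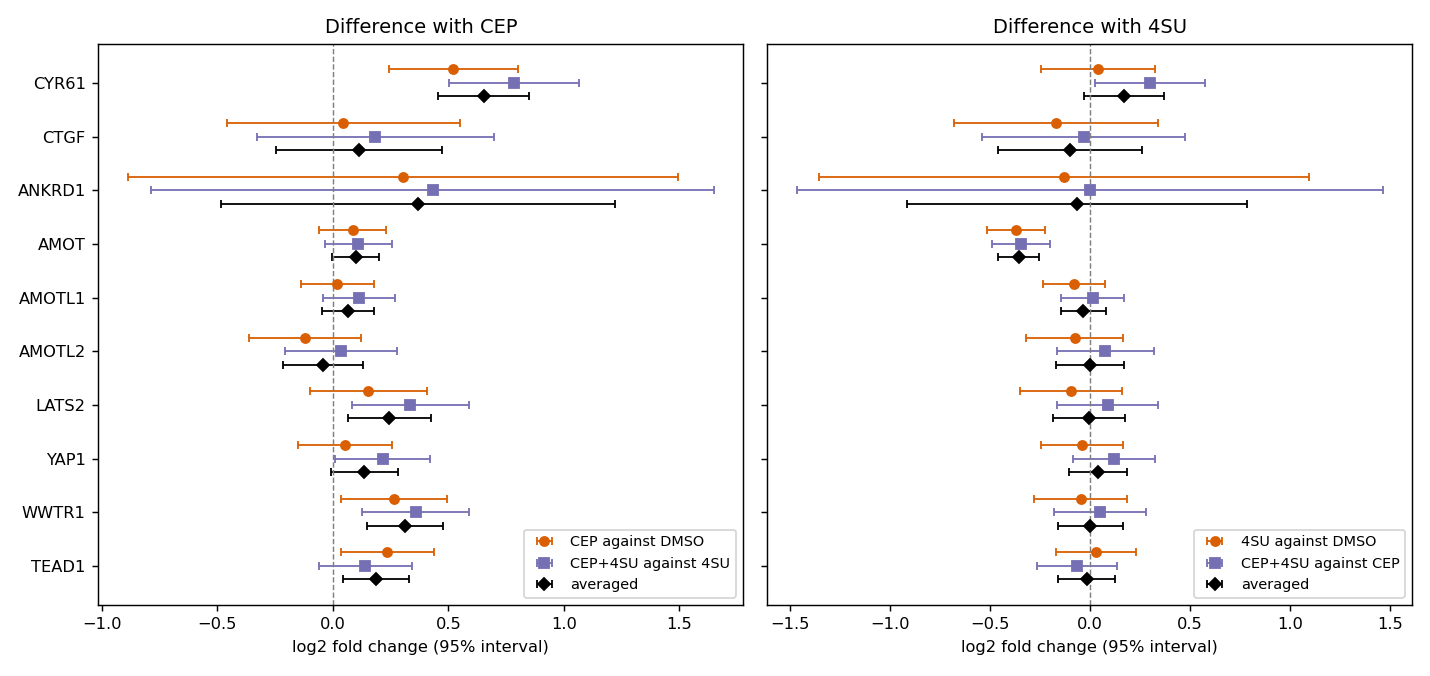
Log2 fold changes (x axis) of the 10 genes with CEP, left, and with 4SU, right, as orange circles without the other compound, violet squares in its presence and black diamonds for the average; bars are 95% intervals from the edgeR fit. On average CYR61 is at 0.65 with CEP and AMOT at −0.36 with 4SU, and ANKRD1 has the widest intervals.

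Viewed as a group, 9 of the 10 genes had a positive value with CEP and their median was 0.16, beside −0.01 for the 17729 genes tested. With the GC trend removed, 10 of 10 were positive with a median of 0.13. CYR61 was the 1 gene of the 10 whose 6 libraries with CEP did not overlap the 6 without, as for 1.73% of all genes. With 4SU the median of the 10 was −0.01, beside −0.00 for all genes. AMOT was the 1 of the 10 without overlap, as were 1.35% of all genes. Since these contrasts chose CYR61 and AMOT, nothing is read from those counts.

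The interaction of CEP with 4SU, whether the CEP difference depends on 4SU, was not used in the choice and was tested. None of the 10 genes passed an adjusted p of 0.05 in edgeR's quasi-likelihood test with Benjamini-Hochberg adjustment, none had an unadjusted p under 0.05, and DESeq2 also called 0. The share of all genes past the threshold was 0%, with 467 at an unadjusted p under 0.05. CYR61 had an interaction of 0.26 on the log2 scale (SE 0.19, interval −0.13 to 0.66, adjusted p = 0.9998 by edgeR). AMOT had one of 0.02 (SE 0.10, interval −0.18 to 0.23, adjusted p = 0.9998 by edgeR). For CYR61 the interval leaves room for a CEP difference that is larger with 4SU by up to 0.66, and for AMOT differences above 0.23 or below −0.18 lie outside it.

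Levels were then ordered by FPKM, which divides by gene length. With DMSO, AMOT came first at 92.2 ± 0.680 FPKM, followed by AMOTL1 at 9.71 ± 0.231, YAP1 at 9.34 ± 0.192 and TEAD1 at 6.79 ± 0.359. CYR61 was at 5.39 ± 0.697 FPKM, WWTR1 at 3.96 ± 0.301, AMOTL2 at 2.70 ± 0.220 and LATS2 at 2.55 ± 0.0428. CTGF followed at 1.38 ± 0.166 FPKM and ANKRD1 at 0.363 ± 0.165 (SD, n = 3 each). AMOTL2 and LATS2 were the 1 pair of neighbours whose libraries overlapped in this group, and AMOTL1 and YAP1 were separated by the lowest AMOTL1 library at 9.566 FPKM and the highest YAP1 library at 9.556 FPKM. By mean FPKM over 12 libraries, AMOT ranked 417 among the genes tested, AMOTL1 5156, YAP1 5160 and ANKRD1 15236.

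By mean FPKM, the place of CYR61 in that order differed between groups. It was the fifth with DMSO, CEP and 4SU and the fourth with CEP+4SU, at 9.52 ± 0.756 FPKM. With CEP+4SU it overlapped AMOTL1 and stood above TEAD1 in all libraries. With CEP and with 4SU its libraries overlapped those of TEAD1, the gene above it, so its place was not settled there. Within the CCN pair, CYR61 made up 79.5% ± 3.22 of the summed FPKM of CYR61 and CTGF with DMSO, 84.5% ± 1.07 with CEP, 81.9% ± 3.46 with 4SU and 87.2% ± 2.42 with CEP+4SU (SD, n = 3 each). The 4SU libraries, at up to 85.78%, overlapped those with CEP. CYR61 was chosen for its higher level with CEP, so its place in the order and its share carry that choice. YAP1 stood at 2.37 ± 0.198 times the FPKM of WWTR1 with DMSO and at 2.05 ± 0.214 times with CEP. These libraries overlapped, at 2.139 to 2.493 with DMSO and 1.807 to 2.22 with CEP. The ratio was 2.374 ± 0.2545 with 4SU and 2.15 ± 0.094 with CEP+4SU.

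**Figure D4:**
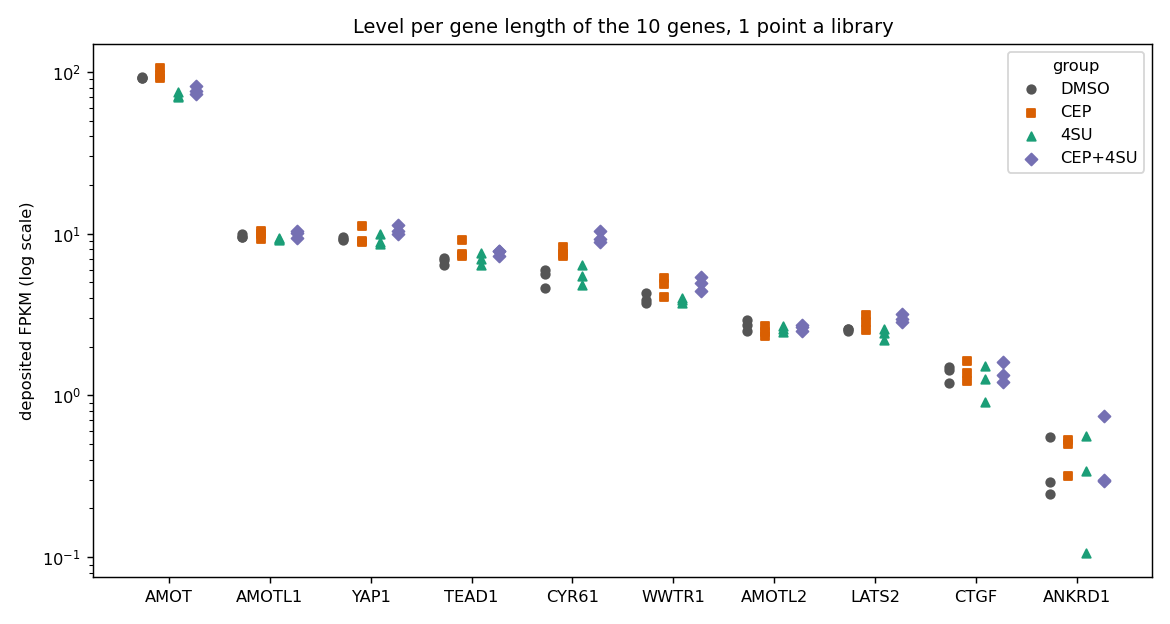
Deposited FPKM (y axis, log scale) of the 10 genes, ordered by their mean with DMSO; each point is a library, with the group by colour and shape. AMOT lies between 69.76 and 105.3 FPKM, about an order of magnitude above AMOTL1 and YAP1, and ANKRD1 lies below 1 FPKM in each library.

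Likeness of pattern was described by Pearson's r of log2 CPM over the 12 libraries, among 14902 genes with a mean of at least 1 CPM. These points share libraries, depth and the GC trend, and r is given with no p. The genes most like CYR61 were EPC2 (r = 0.88), a homolog of the fly gene Enhancer of Polycomb, BTBD10 (0.87), the zinc transporter SLC30A4 (0.87), the deubiquitinase OTUD4 (0.86) and PLEKHB2 (0.85). Their CEP differences were 0.16 to 0.32 on the log2 scale. These genes were picked for following CYR61, itself chosen for its difference with CEP, so their values carry that choice and are no further result. Among the 10 genes themselves, WWTR1 (r = 0.79) and LATS2 (r = 0.78) were most like CYR61, and CTGF had r = 0.27. The genes most like AMOT were the endoplasmic reticulum lectin MLEC (r = 0.98), the mitochondrial carboxylase subunit MCCC2 (0.97), cyclin D1, CCND1 (0.97), glutamine synthetase, GLUL (0.96), and the fatty acid oxidation enzyme HADHA (0.95). Their 4SU differences, −0.31 to −0.14, carry the choice of AMOT in the same way. AMOTL1, at r = 0.57, was the most like AMOT of the other 9, and CYR61 and AMOT had r = −0.01 with each other.

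Other genes of the pathway were taken in 6 lists of 64 genes, of which 60 were tested. Like the 10, these lists were drawn up with earlier results known, and all p-values are adjusted over all genes tested. With CEP, 2 of the 60 passed, TNKS2 and FJX1, where 0.276% of all genes tested did. With 4SU 1 passed, ACTG1, where 0.558% of all genes did. For CEP+4SU against DMSO 2 passed, STK3 and ACTG1, where 1.64% of all genes did. In the interaction 0 passed in edgeR or DESeq2, and 0 had an unadjusted p under 0.05. The calls lay close to the threshold: over 23 alternatives TNKS2 passed in 6 and FJX1 in 9 with CEP, ACTG1 in 18 with 4SU, and STK3 in 10 and ACTG1 in 11 for CEP+4SU against DMSO, with the same sign in each. Leaving out any single library other than CEP replicate 1 or CEP+4SU replicate 1 ended both calls with CEP, and leaving out DMSO replicate 1, 4SU replicate 2 or 4SU replicate 3 ended that of ACTG1 with 4SU.

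The angiomotin partners and turnover factors are the nearest of these lists to AMOT. With CEP, 11 of 11 had positive values with a median of 0.20, and 1 passed. TNKS2, a tankyrase that marks angiomotins for degradation, was at 103.9 to 115.1 CPM in the 6 libraries without CEP and at 120.5 to 140.3 in the 6 with it. It rose by 0.26 (SE 0.05, adjusted p = 0.048 by edgeR). The ubiquitin ligases ITCH, at 0.26 (SE 0.07), and WWP1, at 0.18 (SE 0.07), did not pass with edgeR. DESeq2 called 5 of the 11, ITCH among them, which also passed without the low-count filter. The fit with a replicate block called 6, including ITCH and WWP1. Over all genes with CEP, DESeq2 called 1499, the fit without the low-count filter 1448 and that with a replicate block 2269. With the GC trend removed the median of the list was 0.10, with 11 of 11 positive, and TNKS2 was at 0.14 (adjusted p = 0.25 by edgeR). Without the 2 libraries that stood apart TNKS2 was at 0.23 (adjusted p = 0.059 by edgeR). With 4SU, where AMOT was lower, the median of these partners was 0.01, 6 of 11 were positive, and 0 passed with edgeR or DESeq2, none with an unadjusted p under 0.05.

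Among Hippo kinases and upstream regulators, 12 of 13 had positive values with CEP (median 0.15) and 0 passed with edgeR, against 5 with DESeq2. Over all genes, edgeR called 49 with CEP and DESeq2 1499. An unadjusted p under 0.05 was found for 6 of 13, where 24.3% of all genes tested had one with CEP. MOB1A, the LATS activator with the highest FPKM of the list, was at 0.20 (SE 0.07), STK4 at 0.11 (SE 0.06) and MAP4K4 at 0.10 (SE 0.05). With the GC trend removed the median was 0.06 with 9 of 13 positive. STK3, the kinase upstream of LATS2, rose by 0.51 for CEP+4SU against DMSO (SE 0.13, adjusted p = 0.049 by edgeR). It was at 0.315 (adjusted p = 0.116 by edgeR) with the GC trend removed. Without the 2 libraries that stood apart STK3 was at 0.42 (adjusted p = 0.067 by edgeR) and did not pass.

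The 17 other YAP-TEAD target genes were divided in direction with CEP. Of these, 9 were positive and 8 negative, with a median of 0.01. FJX1, the human homolog of the fly gene four-jointed, fell by 0.53 on the log2 scale (SE 0.11, adjusted p = 0.0496 by edgeR), from 33.21 to 37.01 CPM in the libraries without CEP to 19.55 to 32.4 CPM in those with it. It kept −0.35 (adjusted p = 0.042 by edgeR) with the GC trend removed and −0.43 (adjusted p = 0.059) without the 2 libraries that stood apart. GADD45A, a stress-induced growth arrest gene, was at 0.01 (SE 0.09) and the transcription factor FOXF2 at −0.17 (SE 0.09). Of the other CCN genes, NOV was at 0.50 (SE 0.29) and WISP3 at 0.50 (SE 0.45), both with few reads, and WISP2, at a mean of 0.035 FPKM, was not tested.

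TEAD1 had the opposite sign from its paralogs TEAD2, TEAD3 and TEAD4 with CEP, but with the GC trend removed 5 of the 6 other TEAD and VGLL genes tested were positive as well. TEAD4, the TEAD gene with the highest FPKM, was at −0.14 (SE 0.09) and TEAD2 at −0.17 (SE 0.09), and the cofactor VGLL4 was at −0.09 (SE 0.08). None of the 6 passed with edgeR or DESeq2, and 1 had an unadjusted p under 0.05, beside the same 24.3% of all genes. VGLL3 was called without the low-count filter and with a replicate block, fits that called 1448 and 2269 genes in all with CEP.

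The SRF, MRTF and actin list holds genes that respond, like CYR61, to the state of actin. With CEP its median was −0.00, with 5 of 11 positive. With edgeR 0 passed and 1 had an unadjusted p under 0.05. DESeq2, the fit without the low-count filter and that with a replicate block each called 1, MRTFA. Like VGLL3, MRTFA is named after its values were seen. Over all genes these fits called 1499, 1448 and 2269 with CEP. With 4SU 10 of 11 were negative, with a median of −0.14. ACTG1, cytoplasmic gamma actin, fell by 0.36 on the log2 scale with 4SU (SE 0.06, adjusted p = 0.015 by edgeR), a size close to that of AMOT. Without the 2 libraries that stood apart its value was −0.29 (adjusted p = 0.0049 by edgeR). The ACTG1 libraries with 4SU, at 2547 to 3282 CPM, were below those without, at 3377 to 4101 CPM. ACTG1 shares near-identical sequence with ACTB and with pseudogenes, so its counts depend on how such reads were assigned. ACTB, at −0.23 (SE 0.08), passed without the low-count filter but not in the fit reported. FHL2, at −0.31 (SE 0.07, adjusted p = 0.062 by edgeR), did not pass and, like MRTFA, is named after its values were seen. With 4SU, 2 of this list were called by DESeq2 and with a replicate block. The same number was called with the GC trend removed and without the 2 libraries that stood apart. The fit reported called 1, where 0.558% of all genes passed. SRF itself was at −0.04 (SE 0.09).

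**Figure D5:**
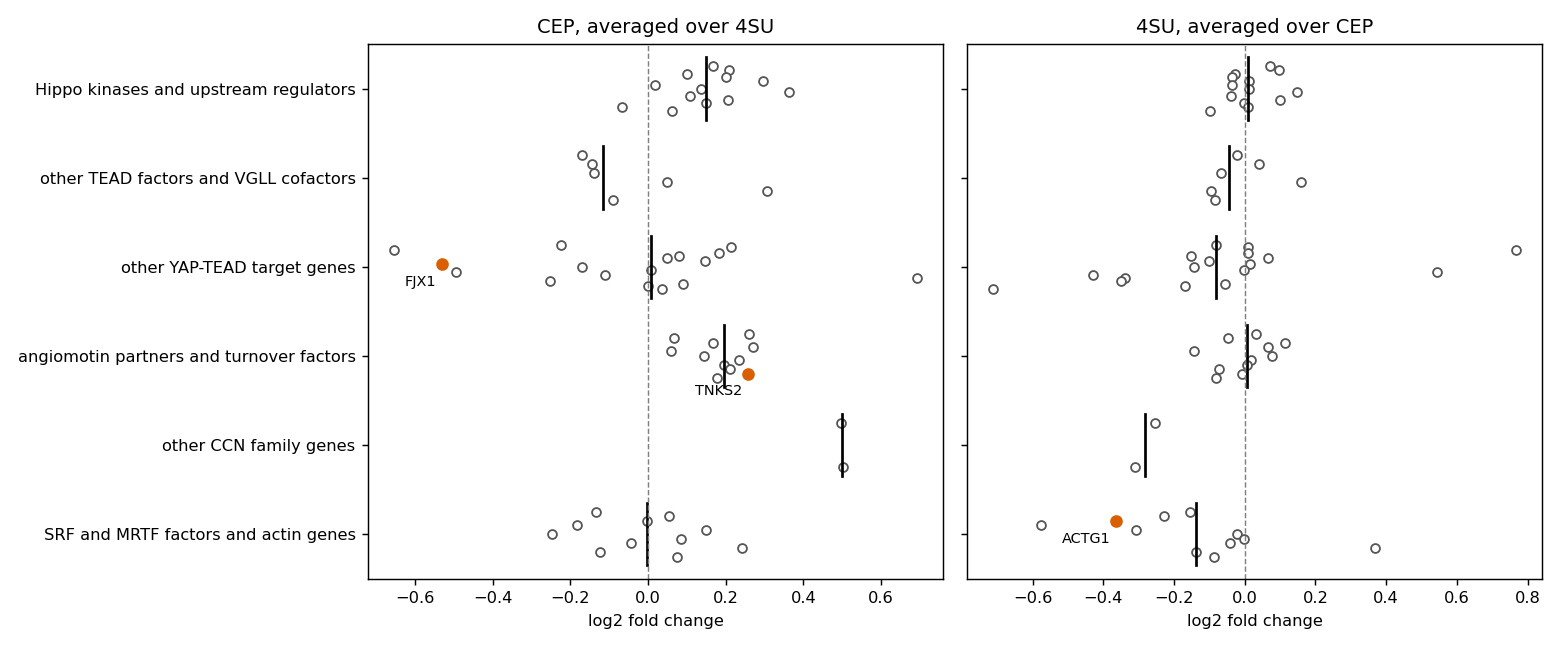
Log2 fold changes (x axis) of the 60 tested genes in 6 lists of other pathway genes, with CEP averaged over 4SU, left, and with 4SU averaged over CEP, right. Each circle is a gene, filled orange and named where its adjusted p is 0.05 or less, and the black line is the median of the list, which with CEP is 0.20 for angiomotin partners and 0.01 for other targets.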

How the data were processed

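Gene counts of 12 RNA-Seq libraries were used as deposited: the authors removed adapter, poly-N and low-quality reads, aligned with HISAT2 2.0.5, counted on genes with featureCounts 1.5.0-p3, and left the whole-number counts unnormalized, with gene names and positions of GENCODE 29 on GRCh38. From those counts the authors computed FPKM by gene length and an adjusted library size, used here as deposited, on a linear scale. The strand setting and the handling of reads that match several genes are not given in the sources used here.

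The 10 genes and the 6 lists of other pathway genes were chosen with earlier results of these data known. Groups follow the sample labels. Genes were filtered with filterByExpr of edgeR 4.0.16 in R 4.3.3 (minimum count 10, minimum total 15), scaled with TMM, and fitted in 1 quasi-likelihood model of the 4 groups with prior count 0.125 for fold changes. Contrasts were CEP averaged over 4SU, 4SU averaged over CEP, CEP+4SU against DMSO and the interaction, with Benjamini-Hochberg adjustment over all 17729 genes at 0.05. Log2 CPM had a prior count of 2. Named are the 10 genes and, from each list, those that passed in any contrast and the 3 highest in mean FPKM, with the 5 genes most like CYR61 and AMOT. GC content came from GENCODE 29 transcripts. Replicate pairs differed by 4.04 to 17.9 times the sampling noise (chi-square per degree of freedom), so each library was counted once. The count tests were run on simulated data that had no GC trend, libraries standing apart or replicate effect, so that run does not show how the tests behave with these. Alternatives were DESeq2 1.42.0, upper-quartile scaling, library size alone, no low-count filter, at least 10 counts in every library, limma 3.58.1 on log2(FPKM + 1) and log2(FPKM + 0.1), the replicate number as a block, length or GC trends removed with a lowess span of 0.3, and each library left out. Leaving out CEP replicate 2 and CEP+4SU replicate 2 together was chosen after seeing the data. A gene of the marker lists is not reported here.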

Additional observations from a re-analysis of the deposited data

How the results depend on the processing

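CYR61 with CEP (0.57 to 0.72 on the log2 scale) and AMOT with 4SU (−0.38 to −0.31) kept their sign in 23 of 23 alternatives, and moved by less than 1 SD of the replicates. Of the differences of all 10 genes, 457 values under alternatives moved by less than that, and 1 by more, AMOTL2 with CEP at 0.12 with the GC trend removed. Leaving out each library gave 0.59 to 0.70 for CYR61 and −0.38 to −0.32 for AMOT. Counts of called genes among the 60 were less steady, for CEP, 4SU and CEP+4SU against DMSO in that order. They were 2, 1 and 2 in the fit reported, 13, 2 and 8 with DESeq2, 9, 2 and 6 with no low-count filter, and 0, 0 and 0 with limma at either pseudocount. With the length trend removed they were 0, 1 and 1, with the GC trend removed 1, 2 and 0, and without the 2 libraries that stood apart 0, 2 and 0. With upper-quartile scaling or library size alone the CEP count was 1. Leaving out each library gave 0 to 15 for CEP, 0 to 1 for 4SU and 0 to 6 for CEP+4SU against DMSO, the 15 without CEP replicate 1 and the 6 without CEP+4SU replicate 1, and without any one of the other libraries the CEP count was 0. Over all genes, 49 were called with CEP in the fit reported, 1499 with DESeq2 and 1448 with no low-count filter. With 4SU the 99 called became 336 with DESeq2, and for CEP+4SU against DMSO the 290 became 1164. The cause was not tested. The interaction called 0 of the 10 genes and the lists in every alternative. Replicate numbers are not said to pair the libraries, and the fit reported did not use them. In deviations from group means, same-numbered libraries correlated at −0.047 to 0.141 (mean 0.027) and others at −0.158 to 0.055 (mean −0.013). Of 12 libraries, 8 correlated best with their own number. Whether the numbers mark a shared batch was not tested. The fit with the replicate number as a block called 15, 2 and 10 of the 60 genes, and 2269 genes in all with CEP. Few reads limit CTGF, with at most 77 per library, and ANKRD1, with at most 31.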
